A study of Mus musculus with 4 samples.

Results

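The set comprises 9 genes that periportal hepatocytes use for nitrogen disposal and amino acid breakdown, taken by symbol from the 55488 genes in the count matrices of 4 mouse liver libraries. Cps1, Otc, Ass1 and Asl encode 4 enzymes of the urea cycle, Gls2, Hal and Sds encode enzymes of amino acid breakdown, Pck1 encodes an enzyme of gluconeogenesis, and Cyp2f2 encodes a periportal cytochrome P450. All 9 were detected in hepatocytes of every library, and all 9 passed the minimum of 100 UMIs (unique molecular identifiers, counted transcript molecules) and a mean of 100 CPM (UMIs per 1000000 UMIs of the same cells).

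The libraries were made from freshly isolated primary liver cells of untreated mice, with hepatocytes and non-parenchymal cells isolated apart and then mixed. The mutant mice carried floxed alleles with Alb-Cre, which deletes in hepatocytes and biliary cells: Yap in YAPKO, Taz (Wwtr1) in TAZKO and both genes in DKO, while WT was genetically unmodified. Each genotype was 1 mouse and 1 library, so the differences have no replicate check and compare libraries, not genotypes. The sources used here do not give the age of the sequenced mice.

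The urea cycle turns ammonia into urea, starting in mitochondria and ending in the cytosol, and the liver is the main organ that runs it. Along the axis from portal vein to central vein, hepatocytes near the portal vein carry most ureagenesis, amino acid breakdown and gluconeogenesis, while those around the central vein take up remaining ammonia by making glutamine. Glucagon, glucocorticoids and protein intake are known to raise several of these genes, and WNT signalling near the central vein is known to keep many of them low.

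Yap1 lies at chr9:7931999-8004596 and Wwtr1 at chr3:57455649-57575910. In hepatocytes, Yap1 was at 21.2 CPM in WT, 4.55 CPM in YAPKO, 46.3 CPM in TAZKO and 4.67 CPM in DKO. Wwtr1 was at 5.58 CPM in WT, 13.5 CPM in YAPKO, 3.34 CPM in TAZKO and 2.89 CPM in DKO, from 107, 229, 48 and 91 UMIs. In hepatocytes of at least 10000 UMIs Wwtr1 in TAZKO was at 1.43 CPM, from 11 UMIs, and the fold below WT was 4.16 in place of 1.67. Each gene was lowest in the libraries named for its deletion and highest in the library of the other single deletion. A 3′ tag can also come from a recombined transcript, so the remaining UMIs say nothing of remaining protein.

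Barcodes with 500 to 6000 detected genes and at most 10% of UMIs from mt- genes were kept, 30362 in all. A kept barcode was taken as a hepatocyte where Alb, Apoa1, Ttr and Apoc3 summed to at least 3% of its UMIs, which gave 9450 hepatocytes: 2254 in WT, 1159 in YAPKO, 3112 in TAZKO and 2925 in DKO. Barcodes under 500 genes, of any cell type, had 6.10%, 4.12%, 5.67% and 2.79% of UMIs from these genes in that order. In WT, YAPKO and TAZKO this lay above the threshold, and its part in the selection was not tested. Barcodes at 2.5% to 3%, just outside, numbered 31, 30, 74 and 117, with the 9 members summing to 2836, 9159, 4089 and 6976 CPM in that order of libraries. Barcodes at 3% to 3.5%, just inside, numbered 21, 37, 80 and 133, with sums of 4454, 6220, 5010 and 7508 CPM. Between 10 and 67 barcode sequences were common to any pair of libraries, and at most 5 were hepatocytes in both. Hepatocytes with over 0.5% of UMIs from markers of other cell types, 76, 76, 162 and 93 in number, were kept. No doublet caller was run, and without these cells the same members passed 1.5-fold in every comparison.

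The hepatocytes differed in depth between libraries. Their median was 2166.5 UMIs in WT, 6457 in YAPKO, 1854.5 in TAZKO and 6475 in DKO. In WT, 384 hepatocytes of at least 10000 UMIs held 74.7% of all hepatocyte UMIs; the same class had 464 cells and 83.4% of UMIs in YAPKO, 292 and 53.6% in TAZKO, and 995 and 71.8% in DKO. The share of summed hepatocyte UMIs from mt- genes was 2.90%, 3.82%, 3.46% and 2.67%, and that from markers of other cell types 0.169%, 0.208%, 0.188% and 0.158%. Per hepatocyte, the median mt- share was 0.148%, 1.12%, 0.778% and 0.318%, lowest in WT. The median number of detected genes was 721.5, 1771, 848 and 1843. Of 8 stress genes (Fos, Jun, Junb, Egr1, Atf3, Hspa1a, Hspa1b, Dnajb1) the sum was 542, 390, 382 and 509 CPM. Depth, mt- share, other markers and stress genes thus differed beside the members, and their part in the results was not tested.

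Levels below are CPM of UMIs summed over the hepatocytes of a library, with exact 95% Poisson intervals that cover counting error only. Together the 9 members made up 7947 CPM in WT, 9936 CPM in YAPKO, 9434 CPM in TAZKO and 9498 CPM in DKO. WT was lowest and the 3 mutant libraries lay close to each other. All genes of at least 100 UMIs also had median log2 ratios to WT of 0.40 in YAPKO, 0.62 in TAZKO and 0.46 in DKO. The 4 urea cycle enzymes alone summed to 4246 CPM in WT, 4934 CPM in YAPKO, 5738 CPM in TAZKO and 5660 CPM in DKO.

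**Figure D1:**
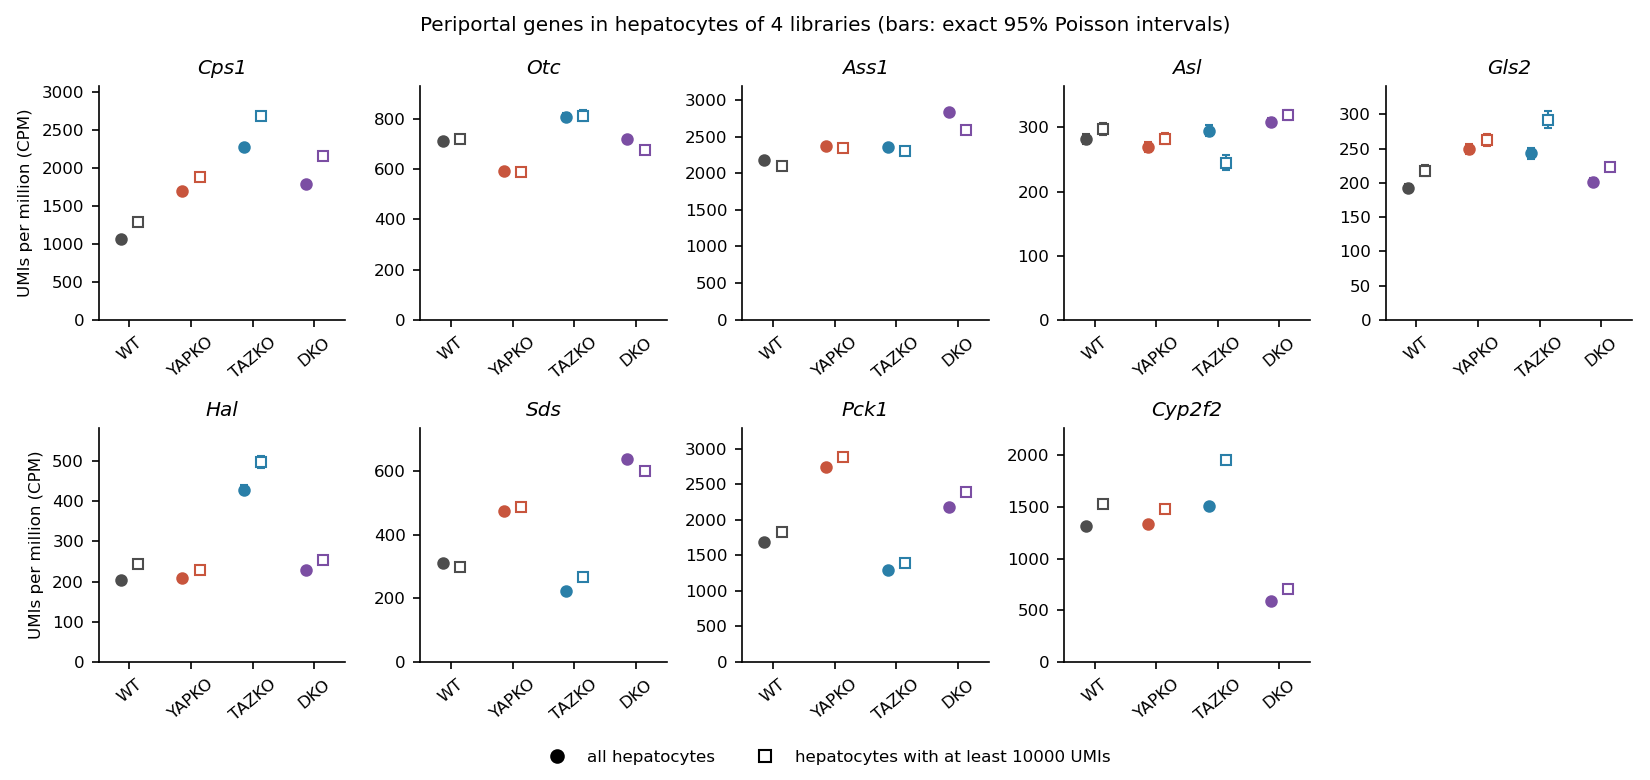
Level of each member in hepatocytes of the 4 libraries, with filled circles for all hepatocytes, open squares for those of at least 10000 UMIs, and 95% Poisson intervals. Cps1 ran from 1069 CPM in WT to 2280 CPM in TAZKO, and Cyp2f2 from 591 CPM in DKO to 1513 CPM in TAZKO.

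Cps1 (ENSMUSG00000025991, chr1:67123026-67231259, + strand) encodes carbamoyl-phosphate synthase, which fixes ammonia in the mitochondrion at the entry of the cycle. Its level was 1069 CPM in WT (1054 to 1083), 1695 CPM in YAPKO (1676 to 1715), 2280 CPM in TAZKO (2255 to 2305) and 1791 CPM in DKO (1776 to 1806). WT was lowest and TAZKO highest, and no intervals overlapped. Otc (ENSMUSG00000031173, chrX:10252305-10321024, + strand) encodes ornithine transcarbamylase, the next mitochondrial step, which makes citrulline. Otc was at 711 CPM in WT (699 to 723), 594 CPM in YAPKO (582 to 605), 808 CPM in TAZKO (793 to 823) and 719 CPM in DKO (709 to 728). YAPKO was lowest and TAZKO highest, while the intervals of WT and DKO overlapped.

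Ass1 (ENSMUSG00000076441, chr2:31470207-31520672, + strand) encodes argininosuccinate synthase, which joins citrulline to aspartate in the cytosol. WT had 2184 CPM of Ass1 (2164 to 2205), YAPKO 2376 (2353 to 2399), TAZKO 2355 (2330 to 2380) and DKO 2842 (2824 to 2861). DKO stood above the others, and the intervals of YAPKO and TAZKO overlapped. Asl (ENSMUSG00000025533, chr5:130011258-130029247, - strand) encodes argininosuccinate lyase, which releases arginine and fumarate. For Asl the levels were 282 CPM in WT (275 to 290), 269 in YAPKO (261 to 277), 295 in TAZKO (286 to 304) and 308 in DKO (302 to 314). Every neighbour in the order YAPKO, WT, TAZKO, DKO overlapped the next, and the highest was 1.14 times the lowest.

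Gls2 (ENSMUSG00000044005, chr10:128194457-128210004, + strand) encodes liver-type glutaminase, which frees ammonia from glutamine beside the urea cycle. Its level was 192 CPM in WT (186 to 199), 249 in YAPKO (242 to 257), 243 in TAZKO (235 to 251) and 202 in DKO (197 to 207). The single deletions overlapped above, and WT and DKO overlapped below. Sds (ENSMUSG00000029597, chr5:120476526-120483932, + strand) encodes serine dehydratase, which turns serine into pyruvate and ammonia. Sds was at 310 CPM in WT (302 to 318), 475 in YAPKO (464 to 485), 224 in TAZKO (216 to 231) and 638 in DKO (629 to 647). No intervals overlapped in the order TAZKO, WT, YAPKO, DKO, and the highest was 2.85 times the lowest, the widest span of the 9 members.

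RefSeq promoters matched 5 of the 9 members, Cyp2f2, Hal, Pck1, Ass1 and Otc, and not Sds, Cps1, Asl or Gls2. Those of Hal, Pck1 and Cyp2f2 are printed because each of these members passed 1.5-fold against WT in another library. Each runs from 250 bases before to 50 after the start in RefSeq, on the + strand of GRCm38.p6. For Pck1 and Cyp2f2 this start is not the GENCODE start of the gene coordinates given here, and positions of matches are counted from the RefSeq start. Capitals mark matches, on either strand, to the TEAD motif GGAATG, the HNF4 motif CAAAGTNCA, the C/EBP motif TTGCNNAA, the cyclic AMP response element (CRE) TNACGTCA, the glucocorticoid receptor hexamer TGTTCT or the TATA box TATAAA. Of 32851 promoters of the same length, 14.7% hold the TEAD motif, 1.41% HNF4, 10.8% C/EBP, 2.93% CRE, 19.0% the glucocorticoid receptor hexamer and 13.6% the TATA box. A match is a description, not a site in use.

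Hal (ENSMUSG00000020017, chr10:93488768-93519304, + strand) encodes histidine ammonia-lyase, the entry to histidine breakdown. Hal was at 205 CPM in WT (198 to 211), 208 CPM in YAPKO (201 to 215), 429 CPM in TAZKO (418 to 440) and 228 CPM in DKO (223 to 234). TAZKO stood apart from the other 3, of which WT and YAPKO overlapped. The Hal promoter, chr10:93488518-93488817, held a C/EBP match on the + strand at -150 and a TATA box on the - strand at -28 from the RefSeq start.
Hal: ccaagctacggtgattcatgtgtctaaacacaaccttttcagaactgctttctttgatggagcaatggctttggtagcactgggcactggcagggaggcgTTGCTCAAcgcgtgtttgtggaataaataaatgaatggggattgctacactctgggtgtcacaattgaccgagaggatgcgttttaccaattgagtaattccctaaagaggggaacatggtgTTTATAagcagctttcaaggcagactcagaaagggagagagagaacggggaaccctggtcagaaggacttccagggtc

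Pck1 (ENSMUSG00000027513, chr2:173153048-173159273, + strand) encodes the cytosolic phosphoenolpyruvate carboxykinase, which passes carbon from amino acids and lactate into glucose. Its levels were 1680 CPM in WT (1661 to 1698), 2735 CPM in YAPKO (2710 to 2760), 1287 CPM in TAZKO (1269 to 1306) and 2179 CPM in DKO (2162 to 2195). YAPKO was highest and TAZKO lowest, with no overlap of intervals. The Pck1 promoter, chr2:173152823-173153122, held a CRE match on the + strand at -93 from the RefSeq start.
Pck1: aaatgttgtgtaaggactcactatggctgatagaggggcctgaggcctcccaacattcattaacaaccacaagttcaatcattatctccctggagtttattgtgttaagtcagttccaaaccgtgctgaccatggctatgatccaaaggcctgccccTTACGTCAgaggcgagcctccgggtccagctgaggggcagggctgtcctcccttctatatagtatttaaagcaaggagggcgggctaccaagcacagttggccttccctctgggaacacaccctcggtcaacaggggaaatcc

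Cyp2f2 (ENSMUSG00000052974, chr7:27119909-27133660, + strand) encodes a cytochrome P450 of xenobiotic metabolism that is widely used as a periportal marker. Levels of Cyp2f2 were 1314 CPM in WT (1298 to 1331), 1336 CPM in YAPKO (1318 to 1353), 1513 CPM in TAZKO (1493 to 1533) and 591 CPM in DKO (583 to 600). DKO stood far below the other 3, of which WT and YAPKO overlapped. The Cyp2f2 promoter, chr7:27119705-27120004, held a glucocorticoid receptor hexamer on the - strand at 33 bases after the RefSeq start. The promoters of Ass1 and Otc held no match.
Cyp2f2: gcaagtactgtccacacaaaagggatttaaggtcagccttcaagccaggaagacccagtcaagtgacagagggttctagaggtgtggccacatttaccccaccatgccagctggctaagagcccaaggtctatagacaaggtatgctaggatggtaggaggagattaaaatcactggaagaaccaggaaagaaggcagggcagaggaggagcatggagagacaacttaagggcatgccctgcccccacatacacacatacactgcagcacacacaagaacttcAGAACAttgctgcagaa

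The YAPKO library differed from WT most in Pck1, Cps1 and Sds. Pck1 feeds gluconeogenesis, Cps1 takes in ammonia and Sds breaks down serine, and all were higher in YAPKO. The other 3 urea cycle enzymes lay within 1.5-fold of WT. For Hal and Cyp2f2 the intervals of the libraries overlapped.

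A gene was called where its CPM differed by at least 1.5-fold. In YAPKO against WT, 3 of 9 members were called higher and 0 lower, beside 29.0% of 11284 genes of at least 100 UMIs called higher and 2.42% lower. Among 1238 genes with a mean of at least 100 CPM, 12.4% were higher and 1.94% lower. The members' share near the background of all genes is not a result about the members. Pck1 had a log2 ratio of 0.70 (0.68 to 0.72), Cps1 of 0.67 (0.64 to 0.69) and Sds of 0.61 (0.57 to 0.66), with intervals from exact binomial limits. The members' median was 0.12, against 0.40 over all genes and 0.20 over the abundant genes of at least 100 CPM. Relative to the median of all genes Pck1 was at 0.30, Cps1 at 0.27 and Sds at 0.21, and Otc at -0.66 was the only member past 1.5-fold. Relative to the abundant genes no member passed.

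In hepatocytes of at least 10000 UMIs the log2 ratios of YAPKO to WT were 0.71 for Sds, 0.65 for Pck1 and 0.56 for Cps1, the last under 1.5-fold. Thus 2 of 9 members passed in these cells, where 23.7% of genes of at least 100 UMIs and 8.21% of abundant genes were higher. Gls2, at 0.37 in all hepatocytes, and Otc, at -0.26, did not pass. Sds in YAPKO passed in 7 of 14 alternatives, and Gls2 passed as higher in 3.

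The TAZKO library carried more Hal and Cps1 than WT. Sds and Pck1, by contrast, were at their lowest there of all libraries, though under 1.5-fold from WT. Over 14 alternatives Sds ran from -1.10 to 0.21 there, past 1.5-fold as lower in 6 and with its sign turned in 1, and Pck1 from -1.01 to 0.03, past in 2 and turned in 1. Otc was somewhat higher than in WT, with no overlap of intervals. TAZKO shares WT with the YAPKO and DKO comparisons, so WT values enter each.

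In TAZKO against WT, 2 of 9 members were called higher and 0 lower, beside 52.4% and 3.69% of the genes of at least 100 UMIs and 23.6% and 6.62% of the abundant genes. The share of members called higher was below that of all genes and near that of the abundant genes, which is not a result about the members. Cps1 had a log2 ratio of 1.09 (1.07 to 1.12), 2.13-fold, and Hal of 1.07 (1.01 to 1.13), 2.10-fold. All genes had a median of 0.62, the abundant genes of 0.16 and the members of 0.19. Relative to all genes Cps1 was at 0.47 and Hal at 0.45, both under 1.5-fold, while Sds at -1.10 and Pck1 at -1.01 passed as lower. Relative to the abundant genes, Hal and Cps1 remained higher and Sds passed as lower. Cps1 and Hal were at 1.06 and 1.04 in hepatocytes of at least 10000 UMIs. Sds, at -0.47 in all hepatocytes, was at -0.16 there, and Asl turned from 0.07 to -0.28.

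The DKO library had the least Cyp2f2 and the most Sds of the 4. Cps1 was higher than in WT, as in the single deletions, and lay nearer to YAPKO than to TAZKO. Hal, high in TAZKO, was within 1.5-fold of WT in DKO, but passed as higher in 4 of 14 alternatives, with log2 ratios up to 0.95.

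In DKO against WT, 2 of 9 members were called higher and 1 lower, beside 37.7% and 4.20% of the genes of at least 100 UMIs and 25.7% and 7.35% of the abundant genes. The share of members called higher was below that of all genes and that called lower above it, while both were near those of the abundant genes, which is not a result about the members. Cyp2f2 had a log2 ratio of -1.15 (-1.18 to -1.13), 2.22-fold lower. Sds had a log2 ratio of 1.04 (1.00 to 1.08), 2.06-fold, and Cps1 of 0.74 (0.72 to 0.77), 1.68-fold. The median was 0.16 for the members, 0.46 for all genes and 0.33 for the abundant genes. Relative to all genes Cyp2f2 was at -1.61, Sds at 0.58 and Cps1 at 0.29, so that only Cyp2f2 passed. Relative to the abundant genes, Sds remained higher and Cyp2f2 lower. Ass1 and Pck1, each at 0.38, did not pass. In hepatocytes of at least 10000 UMIs Cyp2f2 was at -1.12, Sds at 1.01 and Cps1 at 0.75.

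DKO against YAPKO compares the libraries that share Yap deletion. Their median depths were close over all hepatocytes, at 6475 UMIs in DKO and 6457 in YAPKO. In hepatocytes of at least 10000 UMIs, which held most of the UMIs, the medians were 20789 in DKO and 29916.5 in YAPKO. Cyp2f2 was lower in DKO here too, and it was the only member past 1.5-fold over all hepatocytes as selected here. In this comparison 0 of 9 members were called higher and 1 lower, beside 13.2% and 8.30% of the genes of at least 100 UMIs and 10.9% and 9.61% of the abundant genes. The single lower member is near the background share of 8.30% and is not a result about the members. Cyp2f2 had a log2 ratio of -1.18 (-1.20 to -1.15), 2.26-fold lower. All genes had a median of 0.07, the abundant genes of 0.11 and the members of 0.13. Sds at 0.43 and Pck1 at -0.33 did not pass, and Cps1 was at 0.08. Sds passed as higher in 5 of 14 alternatives, up to 0.76, Hal in 2, up to 0.76, and Cps1 in 1, at 0.83. With hepatocytes of at least 10000 UMIs alone Cyp2f2 was at -1.07. With a hepatocyte threshold of 10% the ratio of Cyp2f2 was -0.49 to YAPKO and -0.47 to WT, which ended its call in both comparisons.

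**Figure D2:**
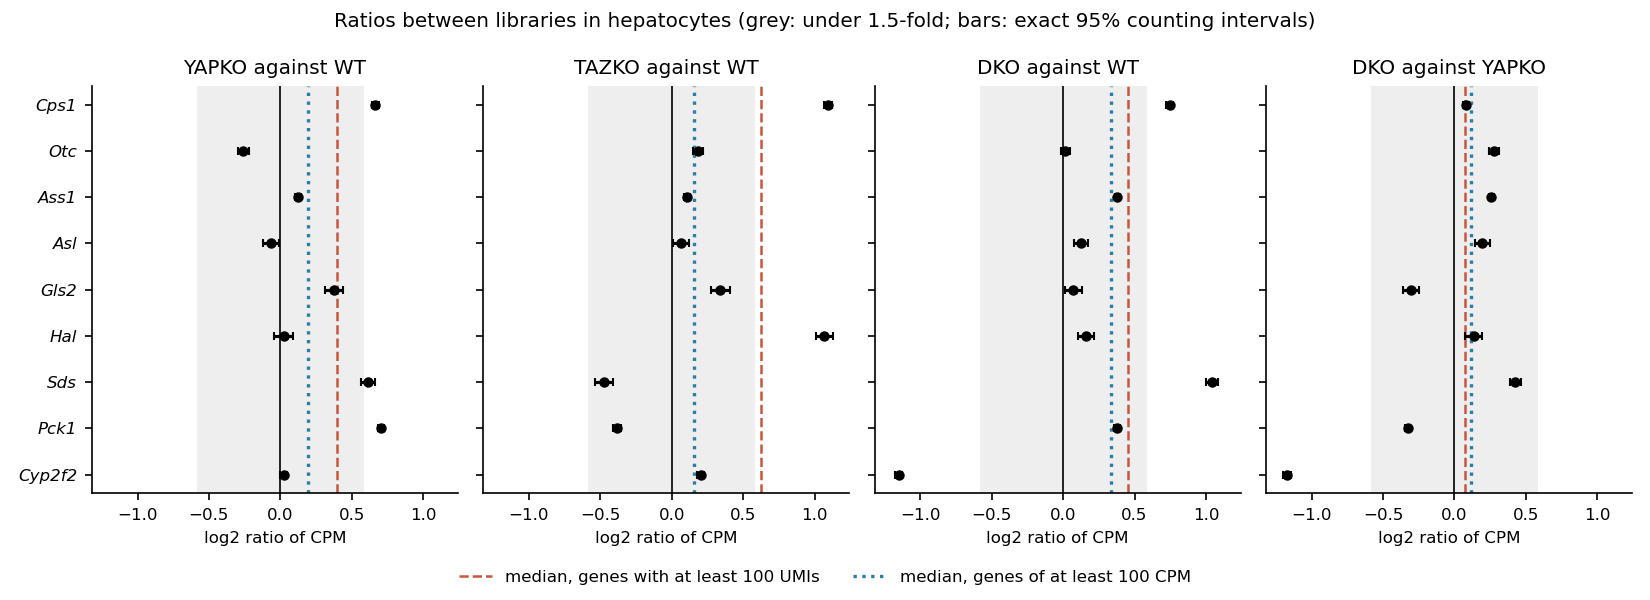
Log2 ratio of each member in the 4 comparisons with exact 95% intervals, the grey band under 1.5-fold, and lines for the median of all genes and of abundant genes. The line of all genes lay at 0.40 for YAPKO, 0.62 for TAZKO and 0.46 for DKO against WT, above the members' medians of 0.12, 0.19 and 0.16.

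Levels of some members went with depth. In WT, Cps1 was at 438 CPM in hepatocytes under 2000 UMIs, 444 CPM from 2000 to under 10000 and 1280 CPM at 10000 or more. YAPKO had 711, 765 and 1882 CPM of Cps1 in these classes, TAZKO 1738, 1861 and 2678, and DKO 1245, 853 and 2152. Cps1 was thus highest in the deepest class of every library, and TAZKO was highest in every class. Cyp2f2 was also higher in the deepest than in the middle class, at 690 and 1528 CPM in WT, 619 and 1479 in YAPKO, 1062 and 1958 in TAZKO, and 297 and 705 in DKO. DKO had the least Cyp2f2 in all 3 classes.

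Hal was at 95.3, 90.5 and 243 CPM in the 3 classes of WT and at 318, 365 and 498 CPM in those of TAZKO. TAZKO had the most Hal in each class. Sds did not follow depth in the same way: WT had 315, 360 and 298 CPM, YAPKO 351, 418 and 487, TAZKO 164, 178 and 267, and DKO 731, 734 and 600. DKO was highest and TAZKO lowest for Sds in all 3 classes. Pck1 was highest in YAPKO from 2000 to under 10000 UMIs, with 2030 CPM, and at 10000 or more, with 2880 CPM; under 2000 UMIs DKO had 1804 CPM and YAPKO 1740 CPM. Ass1 had a ratio of the deepest to the middle class of 0.853 in WT, 0.933 in YAPKO, 0.977 in TAZKO and 0.739 in DKO. The same ratio for Otc was 1.08, 0.968, 1.01 and 0.816, and for Gls2 1.86, 1.46, 1.5 and 1.51, so Gls2 went with depth as Cps1 did and Otc did not.

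**Figure D3:**
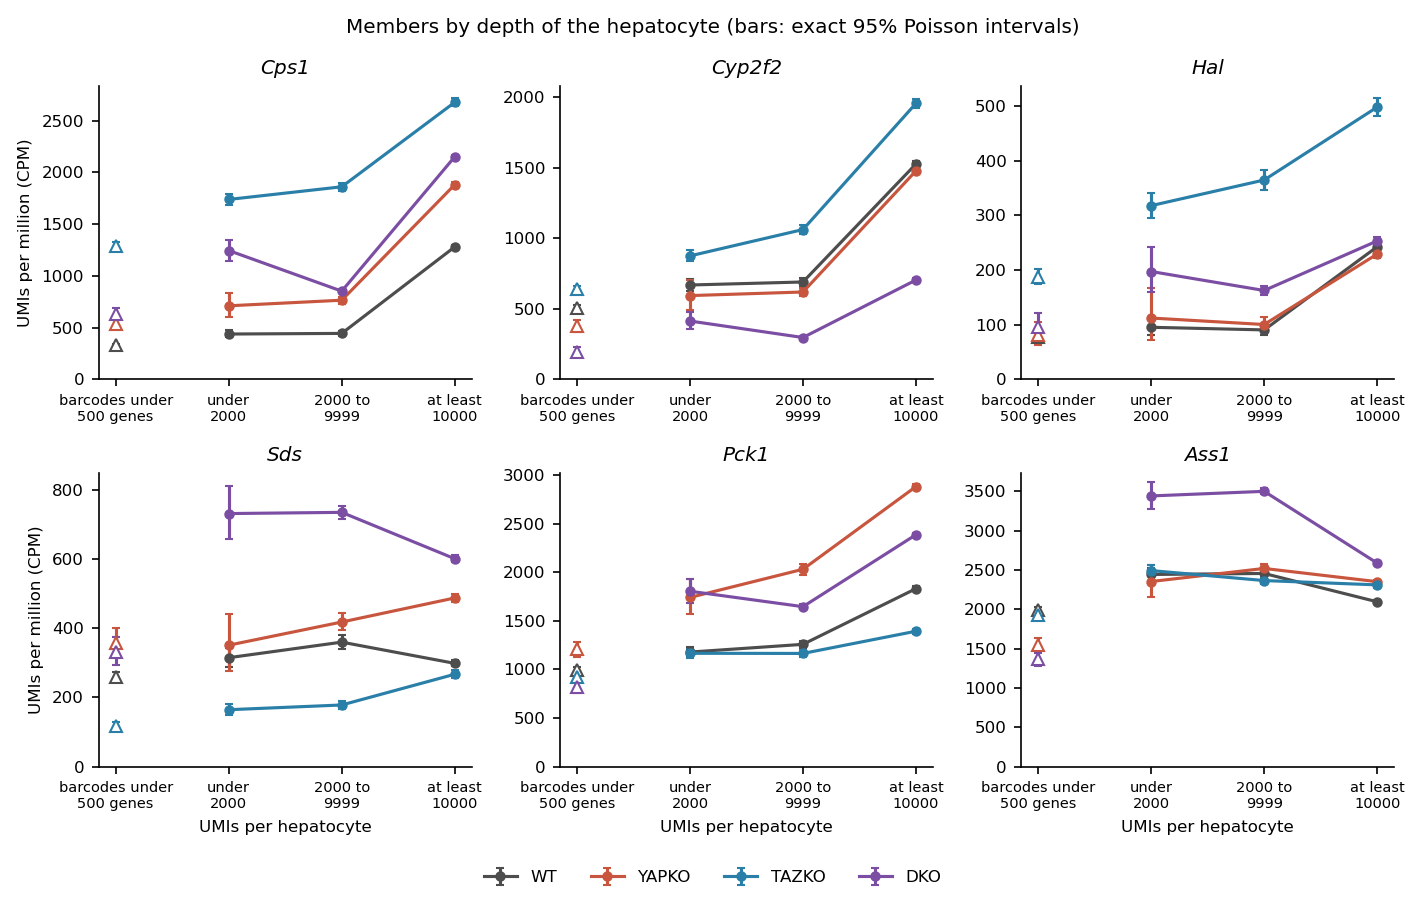
Levels of Cps1, Cyp2f2, Hal, Sds, Pck1 and Ass1 by depth class, with open triangles for barcodes under 500 genes. For Cps1 those barcodes had 327 CPM in WT and 1290 CPM in TAZKO.

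The members were then set against 8 pericentral landmark genes, Glul, Cyp2e1, Cyp1a2, Oat, Slc1a2, Rgn, Gulo and Cyp2c37. Landmarks summed to 300 CPM in WT, 802 CPM in YAPKO, 1774 CPM in TAZKO and 917 CPM in DKO. All 8 were past 1.5-fold higher than WT in YAPKO, 7 in TAZKO and 8 in DKO, with medians of 1.48, 2.71 and 1.56, where 29.0%, 52.4% and 37.7% of all genes were higher, and in DKO against YAPKO 1 was higher and 2 lower with a median of 0.08. In hepatocytes of at least 10000 UMIs the sums were 303, 663, 1127 and 947 CPM. There 7 landmarks passed as higher than WT in each mutant library, with medians of 1.24, 2.07 and 1.70, beside 23.7%, 38.5% and 35.7% of all genes of those cells. In DKO against YAPKO 2 were higher and 1 lower in these cells, with a median of 0.47. Hepatocytes without a landmark UMI made up 55.1%, 36.8%, 4.40% and 26.1% of the libraries. WT had the lowest sum of landmarks and of members. Among the mutant libraries the members summed to 9936 CPM in YAPKO, 9498 CPM in DKO and 9434 CPM in TAZKO, and in hepatocytes of at least 10000 UMIs to 10442, 9900 and 10453 CPM.

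Hepatocytes of at least 10000 UMIs, a limit chosen after seeing the data, were split in each library into 5 bins by their share of landmark UMIs. In WT all 76 cells of the lowest bin and 23 of 77 in the next held no landmark UMI. The border between these bins thus cut through ties. In YAPKO, TAZKO and DKO such cells lay in the lowest bin alone, 44 of 92, 29 of 58 and 111 of 199. Sds was at 358 CPM in the lowest bin and 171 CPM in the highest in WT, 588 and 208 CPM in YAPKO, 368 and 71.2 CPM in TAZKO, and 754 and 255 CPM in DKO. The log2 ratio of these ends was -1.06, -1.50, -2.37 and -1.56, so Sds was lower by over 1.5-fold in the most pericentral bin of every library. Hal went from 228 to 178 CPM in WT, 224 to 128 in YAPKO, 620 to 176 in TAZKO and 243 to 166 in DKO. In the highest bin of these deep cells the intervals of TAZKO and WT overlapped for Hal, whereas in the lowest bin TAZKO stood far above.

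Cyp2f2 went from 1421 to 1147 CPM in WT, 1524 to 816 in YAPKO, 2256 to 899 in TAZKO and 776 to 333 in DKO. DKO had the least Cyp2f2 at both ends. Cps1 went the other way in 3 libraries, from 1096 to 1377 CPM in WT, 1627 to 1983 in YAPKO and 1718 to 2336 in DKO, while TAZKO went from 2785 to 2542. The log2 ratio of the ends for Gls2 was -0.65 in WT, -0.84 in YAPKO, -1.34 in TAZKO and -0.26 in DKO. Otc hardly differed between the ends, at -0.01, -0.07, -0.13 and 0.05. Asl was at -0.14, -0.29, -0.41 and 0.07, under 1.5-fold in every library. Pck1 was at -0.16 in WT, -0.41 in YAPKO, -0.92 in TAZKO and -0.28 in DKO, and passed 1.5-fold in TAZKO alone. Ass1 was lower in the highest bin of WT, YAPKO and TAZKO, at -0.50, -0.32 and -0.45, and higher in that of DKO, at 0.19. In these deep cells TAZKO had the lowest end ratio of the 4 libraries for every member but Ass1. End ratios of genes other than the members were not computed, so this is not a result about the members. The bins hold different landmark levels in each library, with 1439 CPM in the highest bin of WT and 5164 CPM in that of TAZKO, so the ends are not matched positions. Median depth also differed between the ends, from 14938 UMIs in the lowest bin to 33214 in the highest in WT. It went from 32216 to 25668 in YAPKO, 32071.5 to 16589 in TAZKO and 18648 to 21598 in DKO. Cps1 went with this depth in WT, TAZKO and DKO and against it in YAPKO. The part of depth in the end ratios was not tested.

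Bins over hepatocytes of all depths, which differ in depth as well, gave other values for several members. There, cells without a landmark UMI filled bins 1 and 2 of WT and made up 340 of 451 in bin 3. They filled bin 1 of YAPKO and DKO, with 196 of 232 cells in bin 2 of YAPKO and 178 of 585 in that of DKO. In TAZKO they were 137 of 622 cells in bin 1. The lowest bin of WT, YAPKO and DKO was thus cut from tied cells. Hal in the highest bin was at 89.9 CPM in WT (77.6 to 104) and 218 CPM in TAZKO (197 to 241), so there the intervals did not overlap. The log2 ratio of the ends for Cps1 was 0.46 in WT, 0.99 in YAPKO, -0.19 in TAZKO and 1.12 in DKO, past 1.5-fold in YAPKO and DKO. Sds was again lower by over 1.5-fold at the pericentral end of every library, at -1.28, -1.57, -1.76 and -1.64. Cyp2f2 was at -0.50, -0.53, -1.47 and -0.82, and Pck1 at -0.21, 0.02, -0.62 and 0.04. Gls2 was at -0.78, -0.65, -1.10 and 0.06, and Ass1 at -0.47, -0.53, -0.24 and 0.01. Hal was at -0.84, -0.48, -1.36 and -0.26, and Asl at -0.22, 0.10, 0.06 and 0.27. Against the deep cells the sign turned for Asl in YAPKO and TAZKO, Pck1 in YAPKO and DKO, and Gls2 in DKO. TAZKO did not have the lowest ratio for Asl, Ass1 or Otc, the last at -0.13, -0.17, -0.08 and 0.05.

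**Figure D4:**
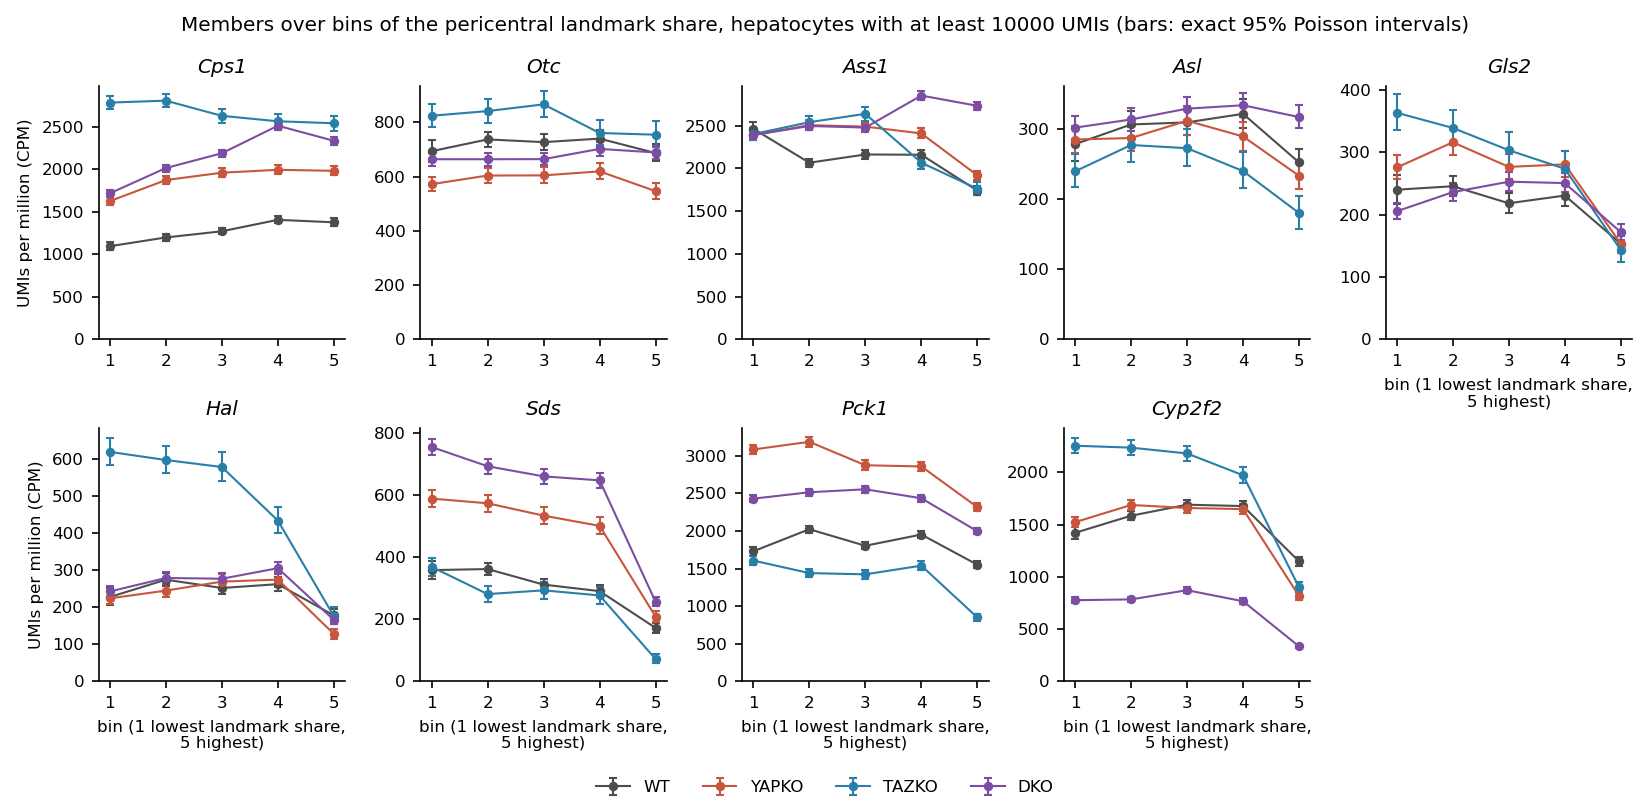
Members over 5 bins of pericentral landmark share in hepatocytes of at least 10000 UMIs. For Hal, TAZKO went from 620 CPM in the lowest bin to 176 CPM in the highest, and WT from 228 to 178 CPM.

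The share of hepatocytes with at least 1 UMI was set beside that of B cells of the same library, as a gauge of free RNA in the droplets. Cells of at least 2000 UMIs were thinned to 2000, which kept 1319 hepatocytes in WT, 1015 in YAPKO, 1433 in TAZKO and 2591 in DKO and left out 935, 144, 1679 and 334. Cps1 was then seen in 58.8% of thinned hepatocytes in WT, 58.8% in YAPKO, 93.8% in TAZKO and 64.8% in DKO. B cells thinned alike held Cps1 in 8.25%, 6.02%, 25.3% and 9.55%. TAZKO was highest in both cell types. Cyp2f2 was seen in 72.2%, 55.5%, 81.1% and 41.2% of thinned hepatocytes and in 13.9%, 3.76%, 12.7% and 3.02% of thinned B cells. Hal was seen in 21.8%, 25%, 50.5% and 29.3% of thinned hepatocytes and 2.32%, 0.752%, 7.72% and 3.52% of B cells, and TAZKO was again highest in both. Sds was seen in 46.4%, 51.0%, 30.1% and 64.5% of thinned hepatocytes and 7.47%, 4.01%, 2.51% and 4.52% of B cells. Pck1 was seen in 89.9%, 94.6%, 89.6% and 92.2% of thinned hepatocytes and Ass1 in 98.1%, 96.5%, 98.7% and 98.5%, so that nearly all of these cells held a UMI of each. Thinned B cells held Ass1 in 36.1%, 16.5%, 35.5% and 19.1%, with WT and TAZKO above YAPKO and DKO. Over all cells the median depth was 2166.5, 6457, 1854.5 and 6475 UMIs in hepatocytes and 2900, 2854, 2781 and 2125 UMIs in B cells, with Cyp2f2 in 76.6%, 66.2%, 78.1% and 62.3% of hepatocytes and 18.3%, 4.73%, 17.1% and 3% of B cells.

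In 9 other cell types, the members' UMIs were divided by those expected if all came from hepatocyte RNA, scaled by the selection genes found in the same cells. In B cells the 9 members summed to 1.07, 1.25, 1.14 and 1.08 times the expected UMIs, and in biliary cells to 0.336, 0.608, 0.325 and 0.409 times. Of 81 pairs of gene and cell type, 2 were above 2 with their whole interval in all 4 libraries: Hal and Asl in monocytes or macrophages. Hal there was at 4.56 times the expected in WT, 17.1 in YAPKO, 3.95 in TAZKO and 10.7 in DKO, from 20, 130, 32 and 58 UMIs in 83, 300, 71 and 188 cells. The selection genes, which set the expected UMIs, summed to 2369, 787, 2984 and 1401 CPM in these cells. The ratios thus do not rank the libraries by their level of Hal. Asl was at 3.97, 11.5, 3.41 and 7.14 times. With barcodes under 500 genes as the reference in place of hepatocytes, Hal was at 8.49, 23.0, 6.38 and 9.96 times and Asl at 4.03, 6.50, 2.43 and 3.21 times, and only Hal kept its whole interval above 2 in every library. Asl was also above the expected in Kupffer cells, at 3.48 times in WT, 10.2 in YAPKO, 2.23 in TAZKO and 5.33 in DKO, and Ass1 in monocytes or macrophages at 2.35, 4, 2.07 and 2.14 times. Across libraries Asl ran from 2.99 to 4.56 times in stellate cells and from 2.51 to 5.01 in dendritic cells. In T or NK cells it ran from 1.90 to 6.51, in endothelial cells from 1.46 to 4.20 and in neutrophils from 0.396 to 3.18. The excess of Asl was thus not limited to Kupffer cells and monocytes or macrophages. Cps1 was at 0.514, 0.622, 0.926 and 0.794 times in B cells, and its highest value in the 9 types was 1.44 in stellate cells of WT, from 23 UMIs. With barcodes under 500 genes as the reference that value was 3.28, with its whole interval above 2 in WT alone. The monocytes or macrophages held 7, 8, 8 and 8 of their 8 markers, which summed to 35240, 30376, 22710 and 19323 CPM, with Lyz2 the most abundant.

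**Figure D5:**
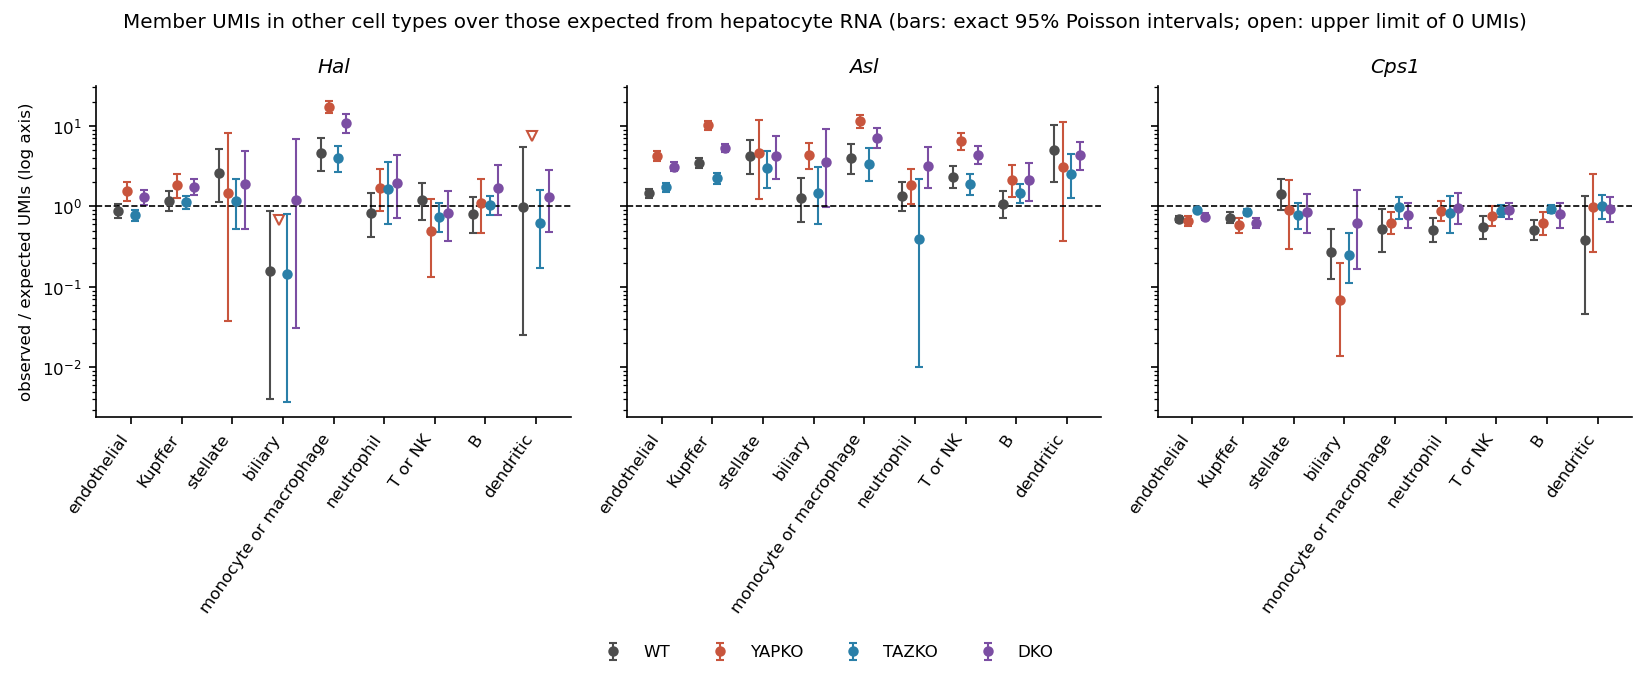
Observed over expected UMIs of Hal, Asl and Cps1 in 9 other cell types on a log axis, with open triangles for the upper limit where no UMI was seen. Hal in monocytes or macrophages lay at 17.1 in YAPKO and 10.7 in DKO. The expected UMIs vary with the hepatocyte RNA in each library, so the ratios do not rank libraries by level.

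The genes around the members were followed in lists by pathway, each with its genes called higher and lower than WT at 1.5-fold. Of all genes, 29.0% were higher and 2.42% lower in YAPKO, 52.4% and 3.69% in TAZKO, 37.7% and 4.20% in DKO, and 13.2% and 8.30% in DKO against YAPKO, and a list near these shares is not a result about it. In hepatocytes of at least 10000 UMIs, the deep cells below, these shares were 23.7% and 1.85%, 38.5% and 4.19%, 35.7% and 3.53%, and 13.1% and 6.65%. The 12 genes that support the urea cycle (transporters, N-acetylglutamate synthesis, glutamate and aspartate supply) had 4 higher in YAPKO, 7 in TAZKO and 8 in DKO and 0 lower, with medians of 0.42, 0.66 and 0.73; in DKO against YAPKO 2 were higher and 0 lower, with a median of 0.22. Slc7a2, an arginine transporter, was at 158 CPM in WT, 237 in YAPKO, 228 in TAZKO and 414 in DKO. Slc38a2, an amino acid transporter, was at 148, 354, 238 and 337 CPM, and Aqp9, a glycerol and urea channel, at 39.9, 57.3, 98.5 and 67.1 CPM. The 4 enzymes of the cycle had 1 higher and 0 lower in each comparison with WT, always Cps1, with medians of 0.03, 0.15 and 0.25, and 0 of either in DKO against YAPKO, with a median of 0.23. Against WT the shares of supporting genes were near those of all genes in YAPKO and TAZKO, and the medians of the enzymes lay below those of all genes. In DKO against YAPKO the median of the enzymes lay above the 0.07 of all genes. Supporting genes higher in YAPKO numbered 2 in the deep cells, and enzymes 0.

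Of 4 genes of the glutamine counterpart, 3 were higher in YAPKO, 3 in TAZKO and 4 in DKO, with medians of 2.30, 1.49 and 1.31, and in DKO against YAPKO 1 was higher and 2 lower, with a median of -0.57. Oat and Glul of this list are also pericentral landmarks, so its counts are not separate from those of the landmarks. In the deep cells 3 of the 4 had enough UMIs, and 2 of these were higher than WT in each library, with medians of 1.21, 1.2 and 1.12. In DKO against YAPKO 2 were higher and 1 lower there, with a median that turned to 0.61. Oat, ornithine aminotransferase, was at 2.92 CPM in WT, 96.7 in YAPKO, 74.0 in TAZKO and 80.2 in DKO. In the deep cells Oat was at 32.0 CPM in YAPKO and 83.0 CPM in DKO, so its log2 ratio of -0.27 between them became 1.37. Glul, glutamine synthetase, was at 27.4, 106, 32.7 and 41.6 CPM, and the ammonia transporter Rhbg at 0.417, 2.60, 1.04 and 1.43 CPM. Glul was at 28.7, 66.3, 21.1 and 42.5 CPM in the deep cells, so its log2 ratio of TAZKO to WT turned from 0.25 to -0.44, and that of DKO, 0.60 over all hepatocytes, was under 1.5-fold at 0.56. Oat shares ornithine with Otc, which did not pass 1.5-fold from WT by its CPM over all hepatocytes.

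Beside Hal and Sds, 10 genes of histidine, serine, glycine and threonine breakdown had 2 higher in YAPKO, 4 in TAZKO and 0 in DKO, and 1 lower in DKO, with medians of 0.35, 0.54 and 0.30. The share higher was below that of all genes in each library, and in the deep cells 1 was higher in YAPKO. In DKO against YAPKO 0 were higher and 1 lower, with a median of -0.18. Uroc1, the step after Hal, was at 209 CPM in WT, 323 in YAPKO, 379 in TAZKO and 291 in DKO. Shmt1, a serine hydroxymethyltransferase, was at 56.4, 91.9, 113 and 70.6 CPM, and Gldc of the glycine cleavage system at 117, 166, 192 and 68.9 CPM. These genes were all highest in TAZKO, as Hal was. Uroc1 also stood above WT in YAPKO, where the Hal intervals of YAPKO and WT overlapped.

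Of 10 genes of aromatic amino acid breakdown, 1 was higher in YAPKO, 3 in TAZKO and 1 in DKO and 0 lower, with medians of 0.18, 0.40 and 0.24, and in DKO against YAPKO 1 was lower, with a median of 0.01. Each share of aromatic genes higher than WT was below that of all genes, and in the deep cells 0 were lower in DKO against YAPKO. Tat, tyrosine aminotransferase, was at 678 CPM in WT, 1694 in YAPKO, 1475 in TAZKO and 1780 in DKO. Hgd, homogentisate dioxygenase, was at 208, 238, 332 and 258 CPM, and Haao of the kynurenine pathway at 184, 212, 311 and 230 CPM. Of 8 genes of sulfur amino acids, 3 were higher in YAPKO, 4 in TAZKO and 5 in DKO, and 0, 1 and 1 lower, with medians of 0.47, 0.50 and 0.71; in DKO against YAPKO 1 was higher and 2 lower, with a median of 0.19. In the deep cells 1 was higher in YAPKO. Mat1a, which makes S-adenosylmethionine, was at 931, 1409, 1404 and 1825 CPM, Cth at 245, 279, 515 and 461 CPM, and Ahcy at 97.7, 98.4, 44.4 and 34.9 CPM.

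Proline, branched-chain, lysine and alanine breakdown, 10 genes, had 3 higher in YAPKO, 6 in TAZKO and 2 in DKO, and 1 lower in DKO, with medians of 0.47, 0.67 and 0.39, and 2 lower in DKO against YAPKO, with a median of 0.02. Over all hepatocytes the shares higher in YAPKO and TAZKO were near those of all genes, while in the deep cells 2 of the 10 were higher in TAZKO, below the 38.5% of all genes. Aldh4a1 was at 69.3, 123, 159 and 134 CPM, Aass at 144, 220, 229 and 268 CPM, and Gpt2, an alanine aminotransferase, at 129, 240, 205 and 147 CPM. Beside Pck1, 5 genes of gluconeogenesis had 1 higher in YAPKO, 2 in TAZKO and 0 in DKO, and 1 lower in DKO, with medians of 0.36, 0.34 and -0.00, and 1 lower in DKO against YAPKO, with a median of -0.42. In the deep cells 0 of these 5 were higher in any library, and the median in DKO was 0.04. G6pc, glucose-6-phosphatase, was at 499 CPM in WT, 641 in YAPKO, 554 in TAZKO and 309 in DKO, lowest in DKO where Pck1 stood above WT. Pcx was at 95.9, 149, 153 and 109 CPM and Pck2, the mitochondrial counterpart of Pck1, at 1.88, 2.01, 3.13 and 1.88 CPM.

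Of 13 regulators known to act on these genes, 5 were higher in YAPKO, 4 in TAZKO and 6 in DKO, and 1 lower in each, with medians of 0.49, 0.52 and 0.50, and none passed in DKO against YAPKO, with a median of 0.10. The share of regulators higher was near that of all genes in YAPKO and DKO, which is not a result about the regulators. In TAZKO it was below that of all genes. Regulators lower in TAZKO numbered 2 in the deep cells, and 1 was higher there in DKO against YAPKO. Cebpb was at 278 CPM in WT, 596 in YAPKO, 211 in TAZKO and 525 in DKO. Klf15 was at 54.5, 119, 100 and 131 CPM, and Onecut1 at 25.8, 8.40, 16.3 and 12.3 CPM. Of 11 other periportal genes, with the selection gene Alb among them, 2 were higher in YAPKO, 2 in TAZKO and 3 in DKO, and 1, 3 and 3 lower, with medians of -0.00, -0.30 and 0.19, and in DKO against YAPKO 3 were higher and 2 lower, with a median of -0.24. In the deep cells the median in TAZKO turned to 0.21, and 1 was higher in YAPKO. Apoa4 was at 1038, 1721, 234 and 377 CPM, the protease gene Ctsc at 126, 73.9, 83.6 and 28.5 CPM, and Etnppl at 83.7, 77.3, 164 and 285 CPM. Ctsc was thus lowest in DKO, as Cyp2f2 was, while Etnppl was highest there. The 8 stress genes had 1 higher and 5 lower in YAPKO, 0 and 4 in TAZKO, and 2 and 3 in DKO, with medians of -0.62, -0.69 and 0.06, and 4 higher and 0 lower in DKO against YAPKO, with a median of 0.66. Of the 8, 7 were lower in TAZKO in the deep cells, beside 4.19% of all genes.

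Members did not move as 1 group over 20 pools of hepatocytes, 5 landmark bins in each of 4 libraries, which share libraries and differ in depth. The 36 pairs of members had a median correlation of 0.25 over these 20 points, from -0.67 for Pck1 and Otc to 0.77 for Sds and Pck1. In pools of hepatocytes of at least 10000 UMIs the median was 0.29, from -0.74 to 0.83. Of the members, each of which enters the standardized mean of all 9, Gls2 lay closest to that mean, at 0.86, then Hal at 0.84, while Cyp2f2 and Pck1, each at 0.35, lay farthest from it. In the pools of deep cells Gls2 was again closest, at 0.93, while Otc at 0.28 and Cps1 at 0.32 lay farthest. Of 1234 genes compared, those outside the members most like their mean were Sfxn1, a mitochondrial serine transporter, at 0.81, Ftcd at 0.80, Uroc1 at 0.80, C8a at 0.77 and Etnppl at 0.73. With log2 of the median UMIs of the pools these genes had correlations of 0.79, 0.35, 0.55, 0.76 and 0.36. The member mean itself had one of 0.56, and the part of depth in the likeness was not tested.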

How the data were processed

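Deposited UMI counts of 4 libraries (1 mouse per genotype) were used as the authors made them with Cell Ranger and mm10, given as version 6.0.1 in their notes and 4.0.0 in the matrix headers. The libraries held 66259687, 85989454, 49022089 and 77411746 UMIs for WT, YAPKO, TAZKO and DKO, in 13657, 7711, 14418 and 9188 barcodes. Gene IDs were matched to GENCODE vM21 (GRCm38, 55227 of 55488). Counts were summed over hepatocytes and scaled to CPM, with 95% Poisson and conditional binomial intervals and no test, in Python 3.11.15 with numpy 2.4.6, scipy 1.17.1, pandas 2.3.3 and matplotlib 3.10.9. Calls were at 1.5-fold, thinning to 2000 UMIs used a fixed seed, and the code was tested on simulated data.

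The members and the lists were chosen with earlier results of these data known. Lists covered the urea cycle core and its support, the glutamine counterpart, histidine to threonine, aromatic, sulfur, and proline to alanine breakdown, gluconeogenesis, regulators, other periportal genes, stress genes and pericentral landmarks. Genes named were the members, Yap1, Wwtr1, the 3 genes of each pathway list with the largest log2 ratio to WT in any library at 100 UMIs or more, the 5 genes most like the member mean, and single markers where needed. Alternatives numbered 13, and 4 more were chosen after seeing the data: hepatocytes of at least 10000 UMIs, alone and relative to the abundant genes, the mean of 3 depth classes, and bins within the deep cells. Other samples of the series and kinds of data were not analysed here. Of the set and the lists, 2 genes are not reported here.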

Additional observations from a re-analysis of the deposited data

Results flagged for a closer look

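Values in barcodes outside the kept cells are given because those barcodes were left out of the hepatocyte levels and ratios. In barcodes under 500 genes, of any cell type, the 9 members summed to 4990 CPM in WT, 4805 CPM in YAPKO, 6134 CPM in TAZKO and 4100 CPM in DKO. Barcodes over 6000 genes had sums of 6092 CPM in WT, 4010 CPM in YAPKO, 5101 CPM in TAZKO and 4102 CPM in DKO. In barcodes over 10% mt- UMIs the sums were 5200 CPM in WT, 5359 CPM in YAPKO, 5348 CPM in TAZKO and 5381 CPM in DKO. The differences between libraries were not tested.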

How the results depend on the processing

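With 1 library per genotype, no alternative adds a replicate, and hepatocytes under 2000 UMIs hold the fewest UMIs per cell. All 9 calls kept their sign in 14 of 14 alternatives. The call at 2-fold, the minimum of 20 UMIs and the bins within the deep cells are not among the 14. At 2-fold no call in YAPKO passed, nor did Cps1 in DKO against WT. Past 1.5-fold in 13 of 14 were Hal in TAZKO (log2 ratio 0.45 to 1.81), Cps1 in TAZKO (0.47 to 2.13), Sds in DKO (0.58 to 1.39), and Cyp2f2 in DKO against WT (-1.61 to -0.47) and YAPKO (-1.29 to -0.49). Cps1 in DKO passed in 11 (0.29 to 1.36), and in YAPKO Pck1 passed in 11 (0.30 to 0.81), Cps1 in 9 (0.27 to 1.04) and Sds in 7 (0.21 to 0.71). Of the ratios under 1.5-fold, some passed in alternatives: Otc in 1 and Gls2 in 3 in YAPKO, Cyp2f2 in 2, Sds in 6, Pck1 in 2, Asl in 1 and Gls2 in 3 in TAZKO, and Hal in 4 and Ass1 in 1 in DKO. In DKO against YAPKO these were Hal in 2, Sds in 5 and Cps1 in 1.

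Medians of the members beyond their counting interval and counts past the fold that moved by over 1.5 times follow; other counts moved by at most 1 member. A count can hold other members, as relative to all genes in TAZKO, where Sds and Pck1 passed in place of Hal and Cps1. Values are in the order YAPKO, TAZKO and DKO against WT and DKO against YAPKO; the cause was not tested. Beside each count stand the shares of all genes and of abundant genes past the fold in either direction under the same alternative. With a hepatocyte threshold of 10% the medians were 0.16, 0.32, 0.43 and 0.27, and 2 members passed in DKO against YAPKO (20.2% and 14.7%). With the limits of 500 and 6000 read as UMIs they were 0.18, 0.59, 0.55 and 0.42, and 6 members passed in TAZKO (70.4% and 47.3%), 5 in DKO (64.9% and 68.7%) and 3 in DKO against YAPKO (25.9% and 17.6%). Relative to the median of all genes they were -0.28, -0.44, -0.30 and 0.0613, with 1 member past in YAPKO (15.8% and 14.3%) and 1 in DKO against WT (22.9% and 24.4%). Relative to the abundant genes they were -0.0738, 0.0296, -0.18 and 0.0202, with 0 past in YAPKO (18.9% and 10.1%). At 2-fold 0 passed in YAPKO (8.22% and 3.23%). As the mean over cells the medians were 0.38, 0.36, 0.42 and 0.36, with 2 past in DKO against YAPKO (23.6% and 16.9%). Thinned to 2000 UMIs they were 0.33, 0.37 and 0.43 against WT, with 4 past in TAZKO (63.2% and 42.6%) and 2 in DKO against YAPKO (21.1% and 19.1%). Over bins with shared cut points they were 0.24, 0.29, 0.55 and 0.33, with 4 past in TAZKO (54.0% and 31.6%) and 2 in DKO against YAPKO (21.8% and 16.6%).

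Among the alternatives chosen after seeing the data, the mean of 3 depth classes gave medians of 0.0466, 0.32, 0.45 and 0.34, with 2 past in DKO against YAPKO (31.5% and 14%). In hepatocytes of at least 10000 UMIs the median in YAPKO against WT was 0.17. Relative to the abundant genes of those cells the medians were 0.0279, -0.0269, -0.14 and 0.0217, with 0 past in YAPKO (18.2% and 8.62%). With a minimum of 20 UMIs, 6.37%, 5.65% and 6.63% of all genes were called lower in YAPKO, TAZKO and DKO against WT.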
